A study of Mus musculus with 9 samples.

Results

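The NR4A, EGR and NFAT genes of this series are 9 mouse genes: Nr4a1, Nr4a2, Nr4a3, Egr1, Egr2, Egr3, Nfatc1, Nfatc2 and Nfatc3. They were chosen by family name, without a cutoff on their values, among 22238 protein-coding genes of an annotation of the mm9 build. Earlier results of these data were known at that choice. H3K27ac, a histone acetylation mark of active promoters and enhancers, was mapped by ChIP-seq in mouse CD8+ T cells of naive phenotype to ask how loss of the transcription factors Tcf1 and Lef1 affects it. Both groups came from C57BL/6-background mice aged 6 to 12 weeks that carried hCD2-Cre, a transgene that acts in T cells, and a Rosa26 GFP allele, with Tcf7 and Lef1 either +/+ (WT) or fl/fl (dKO). Both were sorted from the spleen as GFP+ TCRβ+ CD62L hi CD44 lo-med CD8+ cells, so that GFP marks cells in which Cre has acted, and the controls share Cre and GFP with the dKO mice. WT had 4 H3K27ac samples and 1 input, and dKO had 3 and 1. The values are 1 list of enriched intervals (islands) per genotype, called by the authors after they had pooled the replicates, and each island has a read count. In bulk chromatin, fewer cells with the mark and less of the mark per cell cannot be told apart. A pooled list has no replicate spread, so no difference below carries a test. The 95% intervals, Wilson for ratios and exact Poisson for densities, cover counting error only.

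In resting T cells the NFAT proteins are held in the cytoplasm by phosphorylation. Antigen receptor signals raise calcium, which activates the phosphatase calcineurin, and dephosphorylated NFAT enters the nucleus. The same signals act through the MAP kinases and serum response factor on Egr genes, and through calcium and CREB-family factors on Nr4a genes. Both families are immediate early genes, transcribed within minutes without new protein synthesis. NR4A proteins are orphan nuclear receptors and EGR proteins are zinc-finger factors. Both act in tolerance and exhaustion of T cells.

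The stretches just before the start of transcription are given for the 3 Nr4a genes and for 1 of the 5 Egr2 promoters, to show the motif letters that these inducible genes hold. Capitals mark the core of the cAMP response element (CRE), which CREB and ATF proteins bind, written TGACG on 1 strand and CGTCA on the other, and, in Egr2, the CArG box of serum response factor. All are on mm9, 5′ to 3′ along the gene's strand, from RefSeq promoter sequences of GRCm38.p6, each of which matched mm9 exactly once.

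Nr4a1, chr15:101097027-101097276, + strand: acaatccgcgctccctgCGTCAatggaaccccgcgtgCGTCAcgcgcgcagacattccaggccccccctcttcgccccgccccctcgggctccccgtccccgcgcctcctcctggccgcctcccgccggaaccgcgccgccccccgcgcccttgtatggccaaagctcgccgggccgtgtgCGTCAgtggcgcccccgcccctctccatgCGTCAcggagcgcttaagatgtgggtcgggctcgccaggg
Nr4a2, chr2:56976415-56976664, - strand: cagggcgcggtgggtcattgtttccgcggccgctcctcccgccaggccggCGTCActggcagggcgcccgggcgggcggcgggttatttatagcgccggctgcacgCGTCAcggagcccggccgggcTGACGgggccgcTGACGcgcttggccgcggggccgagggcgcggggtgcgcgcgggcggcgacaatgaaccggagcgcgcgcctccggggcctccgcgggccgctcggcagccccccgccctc
Nr4a3, chr4:48057927-48058024, + strand: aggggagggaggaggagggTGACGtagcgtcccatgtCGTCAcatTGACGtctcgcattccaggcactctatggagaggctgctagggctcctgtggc
Egr2, chr10:67000367-67000616, + strand: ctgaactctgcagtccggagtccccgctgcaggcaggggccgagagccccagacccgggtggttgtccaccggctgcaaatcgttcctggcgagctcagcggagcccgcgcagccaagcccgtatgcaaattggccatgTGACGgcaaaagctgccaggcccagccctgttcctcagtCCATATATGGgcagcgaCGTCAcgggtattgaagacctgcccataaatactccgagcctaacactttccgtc

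Each of the 3 Nr4a promoters held 4 CRE cores in the 300 bases from 250 before to 50 after the start. At least 1 such core occurred in 23.6% of 21263 protein-coding promoters of that length, and at least 4 in 0.325%. Nr4a3 is shown only up to its first annotated exon, which leaves 3 of its cores. The Egr2 stretch held 2 CRE cores and 1 CArG box, a motif found in 1.52% of promoters. Of the 5 Egr2 promoters, 4 held a CArG box and 3 held CRE cores. Those 3 overlap and share the same CArG box and cores. The Egr2 promoter with its start at 67000314 held a CArG box of its own and no CRE core, and the one with its start at 66998247 held neither. The 250 bases before the start were 74.4% G and C in Nr4a1, 80.0% in Nr4a2, 63.6% in Nr4a3 and 61.6% in the Egr2 stretch, against a median of 55.6% over all promoters.

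Other motifs were searched on both strands in the same 300 bases of 12 promoters of 6 of the genes (Nr4a1, Nr4a2, Nr4a3, Egr2, Nfatc2 and Nfatc3). The EGR site, GCGTGGGCG or GCGGGGGCG, occurs in 4.62% of all promoters and was present once in Nr4a1. A TCF/LEF core, CTTTGA or CTTTGT, occurs in 28.3% of all promoters and was found in 1 of the 12, an Nfatc3 start. The NFAT core GGAAA, a short word found in 59.9% of all promoters, occurred at Nr4a2, Egr2, Nfatc2 and Nfatc3. No promoter of the 12 held the NR4A response element AAAGGTCA, which is in 1.30% of all promoters. EGR sites can overlap one another, and a match is a description of letters, not of binding.

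H3K27ac at the genes was measured from the gene body to 50 kb upstream of the start. Every island sharing at least 1 bp with that window was counted whole, and counts were divided by the total of the list, as CPM (82668007 counts in 65563 WT islands, 57665047 in 82213 dKO islands). Densities are counts per kb of island, given as multiples of the list's own mean (210.5 counts per kb in WT, 134.3 in dKO). Count ratios and density ratios are given as log2 of dKO to WT, so that values below 0 are lower in dKO. Islands were present in both lists for 16385 genes. At the deleted genes themselves the scaled-count log2 ratio of dKO to WT was 0.17 at Tcf7 and -0.30 at Lef1, values that do not measure excision. Promoter islands of the sorted cell type were present at 8 of 8 CD8 T cell markers in both lists, with 274 to 461 counts per kb in WT and 215 to 301 in dKO. Of markers of other cells, the CD4 T cell genes had promoter islands at 2 of 2, the B cell genes at 3 of 4 (not Pax5) and the NK cell genes at 1 of 2 (not Ncr1) in both lists, and the myeloid genes at 3 of 4 in WT and 4 of 4 in dKO. Their densities ranged from 108 to 305 counts per kb in WT and from 86.6 to 212 in dKO, and their part in the results was not tested.

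All 9 genes carried H3K27ac islands in both genotypes, and all 9 had an island within 1 kb of a start in both lists, as did 62.4% of protein-coding genes in WT and 62.6% in dKO. The naive cells thus had the mark at each of these genes in either genotype. By scaled counts 7 genes were lower in dKO and 2 were higher, where 47.4% of all genes were above 0. Of the 7, Egr1 and Egr2 lay at -0.04 each, and at 0.03 each when scaled to regions shared by both lists. The median log2 ratio of the 9 genes was -0.11, beside -0.03 with an SD of 0.63 over all genes. At a ratio of 1.5 either way, 1 gene was lower (Nr4a3) and 0 were higher, whereas 11.5% of all genes were lower and 11.5% higher, so that the count among the 9 genes is near the background.

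By density, 5 genes were below 0 and 4 above, with a median of -0.06 beside -0.03 (SD 0.29) over all genes. None of the 9 passed the ratio of 1.5 by density, where the background was 0.977% higher and 5.33% lower.

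**Figure D1:**
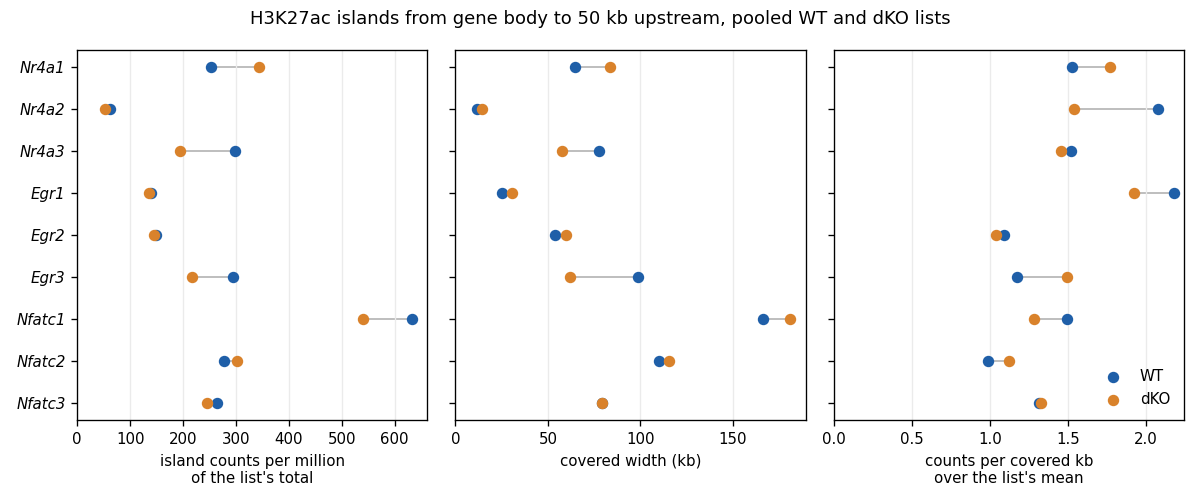
Values of the 9 genes in the pooled WT (blue) and dKO (orange) lists: island counts scaled to the list's total (CPM), covered width in kb, and counts per covered kb divided by the list's mean. Each point is 1 pooled list without replicate error. Nr4a3 and Egr3 had fewer counts over a narrower width in dKO, while their points in the density panel lie to the right of 1.

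Among the 9 genes Egr1 had the highest density in both lists, at 2.18 times the mean in WT and 1.92 times in dKO. In WT it was followed by Nr4a2 at 2.08, then by Nr4a1 at 1.53, Nr4a3 at 1.52 and Nfatc1 at 1.49. Counting intervals of neighbours overlapped between Nr4a1 and Nr4a3 and between Nr4a3 and Nfatc1. Below them lay Nfatc3 at 1.31, Egr3 at 1.17, Egr2 at 1.09 and Nfatc2 at 0.989, each apart from its neighbour beyond counting error. In dKO the order after Egr1 was Nr4a1 at 1.77, Nr4a2 at 1.54, Egr3 at 1.5, Nr4a3 at 1.46, Nfatc3 at 1.33, Nfatc1 at 1.28, Nfatc2 at 1.12 and Egr2 at 1.04. There the intervals of Nr4a2 and Egr3, and of Egr3 and Nr4a3, overlapped. By whole islands Egr1 thus stayed at the top, Egr3 moved from 7th to 4th place and Nfatc2 and Egr2 exchanged the last places. The order depends on the measure. When islands of both lists were joined to regions, Nr4a2 (437 counts per kb) lay above Egr1 (429) in WT. At islands within 1 kb of a start Nr4a3 was the densest in both lists, with 764 counts per kb in WT and 479 in dKO.

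Nr4a3 (ENSMUSG00000028341, chr4:48058025-48099319, + strand) encodes the NR4A receptor also called Nor1. It carried 24711 counts in 8 islands over 77.4 kb in WT and 11221 counts in 11 islands over 57.4 kb in dKO. Scaled to the list totals this is 298.9 CPM in WT and 194.6 in dKO, a log2 ratio of -0.62 (95% interval -0.65 to -0.59). The gene lay at percentile 10.2 of all genes. It fell just short of the ratio of 1.5 with counts taken in proportion to the length inside the window (-0.58) and when scaled to regions shared by both lists (-0.55). Over all its islands together the density log2 ratio was -0.06, with less covered width in dKO. This does not hold for each stretch. Over the promoter region described below, with 18.2 kb covered in WT and 16.4 kb in dKO, the density ratio was -0.31.

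Islands of either list that touched by 1 bp or more were joined to regions, so that 1 stretch is compared with itself. Nr4a3 had 6 regions with islands in both lists, and all 6 were below 0 by scaled counts, from -0.81 to -0.43 on the log2 scale, and narrower in dKO. The promoter region, chr4:48049201-48067400, spans the 5′ end of the gene and had the highest density of all regions named here. It held 13899 counts over 18.2 kb in 1 WT island and 6458 counts over 16.4 kb in 2 dKO islands. This gives 764 counts per kb in WT and 394 in dKO, and log2 ratios of -0.59 (-0.63 to -0.54) for counts and -0.31 for density. Over the gene body, chr4:48073801-48097000 held 4982 counts in WT and 2559 in dKO, or -0.44 for counts and -0.08 for density on the log2 scale. The outermost upstream region, chr4:48011601-48026800, had 2267 counts over 14.4 kb in WT and 902 over 9.2 kb in dKO, at -0.81 by counts and -0.04 by density. A region 9.43 to 15.4 kb upstream, chr4:48042601-48048600, held 1497 counts over 6 kb in WT and 667 over 5 kb in dKO, at -0.65 by counts and -0.26 by density. Of the 2 dKO islands in the promoter region, the weaker one lies upstream of the start, with 904 counts over 4.8 kb. The islands that touch the start, 13899 counts over 18.2 kb in WT and 5554 over 11.6 kb in dKO, stood at -0.80 by counts and -0.03 by density. The islands that touch the start leave out the weaker dKO island, while the WT island covers its stretch. Their density ratio therefore does not compare the same stretch in both lists, as that of the promoter region does. A single stretch, chr4:48070601-48072000 in the gene body, had an island in WT only, of 170 counts over 1.4 kb. The median gene on chromosome 4 was at -0.08.

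Nr4a1 (ENSMUSG00000023034, chr15:101097277-101105223, + strand), which encodes Nur77, a reporter of antigen receptor signalling, was the member with the highest count ratio. It had 20833 counts over 64.8 kb in 3 WT islands and 19791 counts over 83.4 kb in 1 dKO island. The scaled counts were 252.0 CPM in WT and 343.2 in dKO, a log2 ratio of 0.45 (0.42 to 0.47), at percentile 84.3. In dKO the gene, its upstream flank and the stretch downstream were 1 unbroken island, where WT had 4 islands over the same merged region. One of the 4 lies downstream of the window and was left out of the WT sum. Over the merged region, chr15:101044601-101129000, WT had 24806 counts and dKO 19791, a log2 ratio of 0.19 (0.17 to 0.22). Counts taken in proportion to the length inside the window gave 0.10, and the islands at the start alone 0.72, with 0.06 by density. For whole islands the density ratio was 0.21 and for the merged region 0.14. The direction was the same in each of these, and the count ratio ranged from 0.10 to 0.72. Starts of 3 other genes lie in the merged region, 1 of them (Grasp) in the window, so the counts do not belong to Nr4a1 alone. The median gene on chromosome 15 was at 0.09.

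Nr4a2 (ENSMUSG00000026826, chr2:56959241-56976414, - strand), which encodes Nurr1, had the least H3K27ac by count of the 9 genes, in short and dense islands. It had 5161 counts over 11.8 kb in 3 WT islands and 3018 counts over 14.6 kb in 5 dKO islands. Scaled, these are 62.4 and 52.3 CPM, a log2 ratio of -0.25 (-0.32 to -0.19), and by density -0.43. The 5′ promoter region, chr2:56975601-56977800, held 1335 counts over 2 kb in WT and 689 over 2.2 kb in dKO. There the log2 ratio was -0.43 (-0.57 to -0.30) by counts and -0.44 by density, the lowest density ratio of any region of the 9 genes. A second region inside the gene, chr2:56961801-56970400, which covers further annotated starts, went from 3627 counts in WT to 1963 in dKO, at -0.37 and -0.17. Both regions at starts were thus lower in dKO with nearly like widths. The islands that touch a start, summed, stood at -0.46 by counts and -0.09 by density. That sum leaves out a weak dKO island of 137 counts over 1.4 kb, most of whose stretch the WT island covers. Its density ratio therefore does not compare the same stretch in both lists. A distal region 35.6 to 37.8 kb upstream stood at 0.46 by counts and -0.06 by density, with 199 counts over 1.4 kb in WT and 191 over 2.2 kb in dKO, and 1 upstream region had an island of 175 counts in dKO only.

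**Figure D2:**
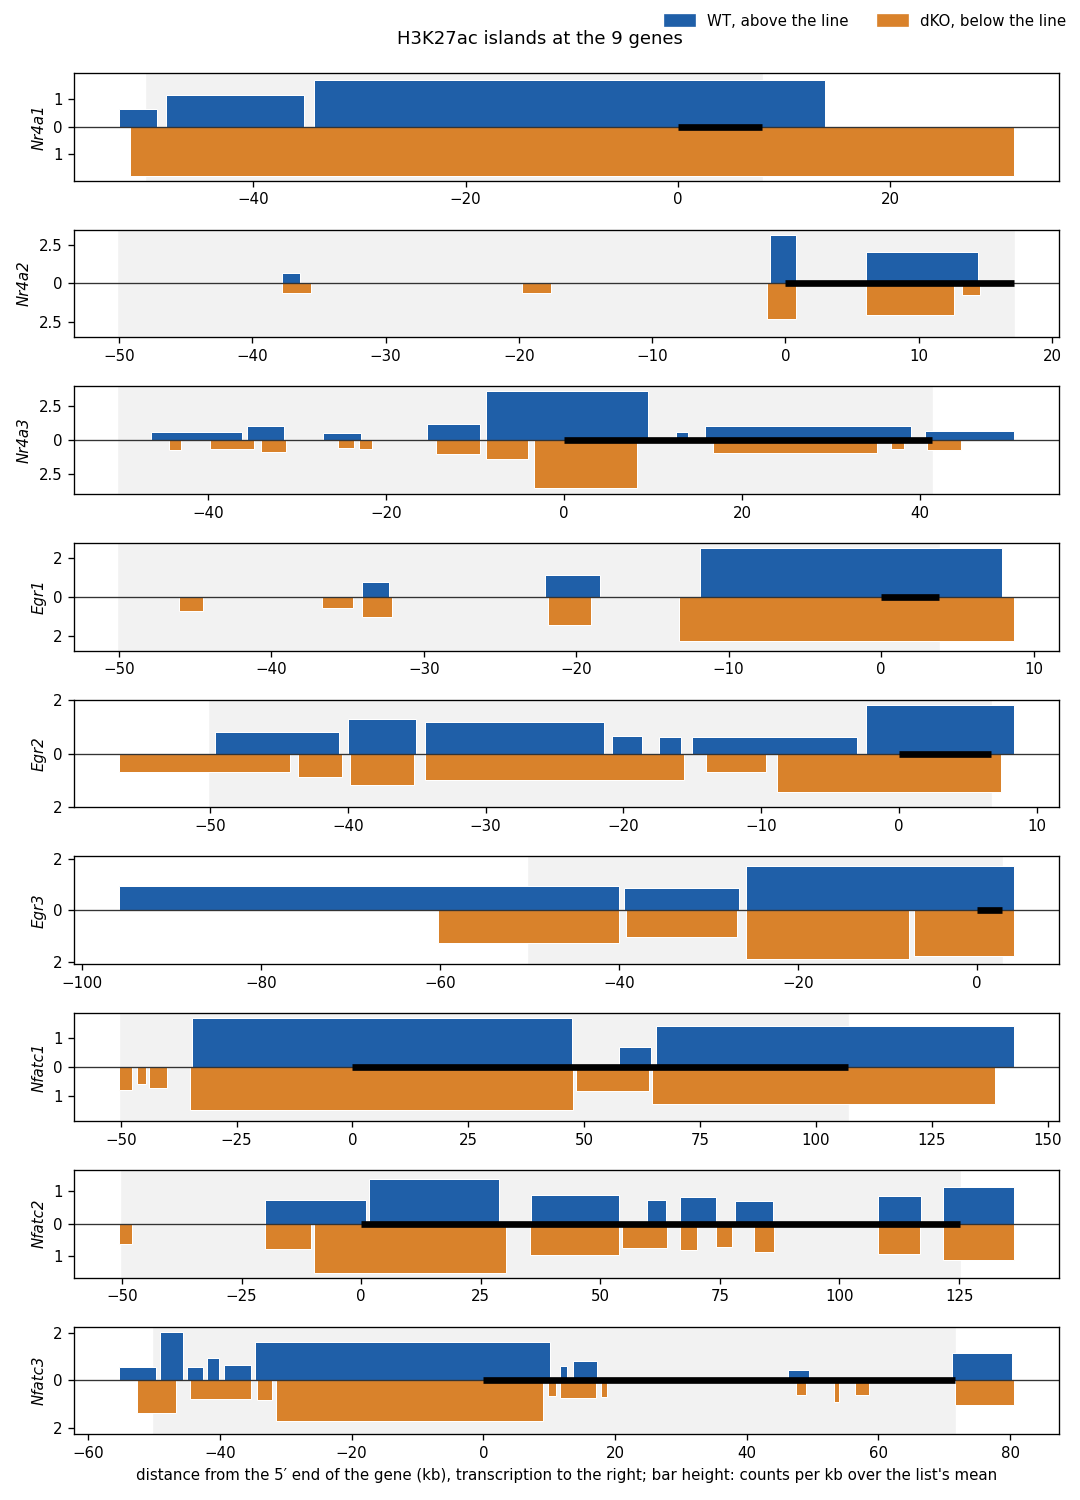
Islands at each gene by distance from its 5′ end in kb, with transcription to the right; WT islands stand above the line and dKO islands hang below it, and bar height is counts per kb over the list's mean. The black line is the gene and the grey band is the window from the gene body to 50 kb upstream. Nr4a1 lies in 1 dKO island where WT has 3 in the window, and at Egr3 the WT island furthest upstream reaches far outside the band.

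Egr1 (ENSMUSG00000038418, chr18:35020861-35024638, + strand), an EGR factor induced by MAP kinase signals, had nearly the same scaled counts in both lists. It had 11578 counts over 25.2 kb in WT and 7858 over 30.4 kb in dKO, or 140.1 and 136.3 CPM. The log2 ratio was -0.04 (-0.08 to 0.00) by counts and -0.18 by density. Its promoter region, chr18:35007601-35033400, gave -0.09 by counts and -0.14 by density. Upstream, a weak region 32.1 to 34.1 kb from the start was higher by both measures (283 counts in WT, 276 in dKO, log2 ratios 0.48 and 0.46), and 2 further regions had islands in dKO only, of 159 and 160 counts. The start of Reep2 also lies in the window, and the promoter region reaches the start of Gm17507, an antisense gene at the 3′ end of Egr1. Without islands at those starts, only weak upstream islands were left, and the log2 count ratio was 1.59. The median gene on chromosome 18 was at -0.13.

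Egr2 (ENSMUSG00000037868, chr10:66998223-67004936, + strand), a factor of T cell anergy, had 12325 counts over 53.6 kb in WT and 8334 over 59.6 kb in dKO. Scaled, these are 149.1 and 144.5 CPM, a log2 ratio of -0.04 (-0.08 to -0.00), and by density -0.07. All 4 of its regions had islands in both lists and lay between -0.37 and -0.04 by counts. The promoter region, chr10:66983201-67006600, stood at -0.16 (-0.22 to -0.10) by counts and 0.11 by density. The islands that touch the start held 4164 counts over 10.8 kb in WT and 3159 over 16.2 kb in dKO, at 0.12 by counts and -0.34 by density, the opposite signs. With the window cut to 20 kb upstream the count ratio was 0.48. The direction at Egr2 thus depends on the measure and on the stretch compared. When all genes were centred on the median gene, which adds 0.03, or on counts in regions shared by both lists, which adds 0.07, the count ratios of Egr1 and Egr2 moved above 0 on the second scale and stayed below 0 on the first.

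Egr3 (ENSMUSG00000033730, chr14:70477252-70479964, + strand), which acts with Egr2 in T cells, gave a value that depended on where an island ends. It had 24342 counts over 98.6 kb in 3 WT islands and 12459 over 62.0 kb in 4 dKO islands. The scaled counts were 294.5 and 216.1 CPM, a log2 ratio of -0.45 (-0.48 to -0.42), whereas the density ratio was 0.35, percentile 96.4 of all genes. A WT island with 17.8% of its length in the window was counted whole in the WT sum, and its dKO counterpart was in pieces, some of them outside the window. Over merged regions the counts were 26678 in WT and 19040 in dKO, a log2 ratio of 0.03, with 0.20 by density. The region over the start, chr14:70451401-70481400, held 10895 counts over 30 kb in WT and 7306 over 29.4 kb in dKO, at -0.06 (-0.10 to -0.01) by counts and 0.10 by density. The island that touches the start gave -1.51 by counts, since the dKO island over this region was in 2 pieces and only 1 of them (2667 counts over 11.2 kb) reaches the start. The 2 regions further upstream lay at 0.10 and 0.09 by counts. With the same stretch compared in both lists, Egr3 thus lay near 0 by counts and above 0 by density.

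**Figure D3:**
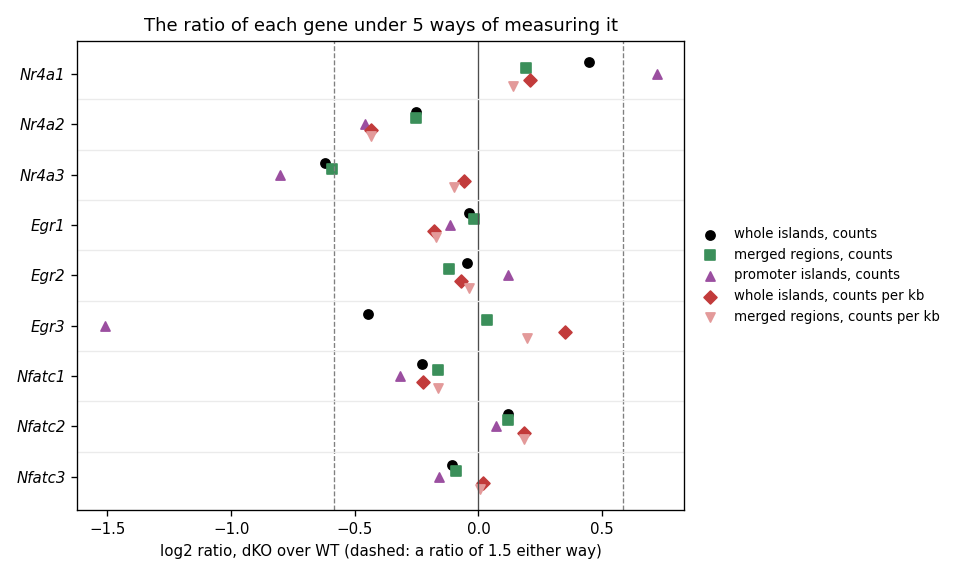
The log2 ratio of dKO to WT of each gene from whole islands, merged regions and promoter islands by scaled counts, and from whole islands and merged regions by counts per kb; dashed lines mark a ratio of 1.5. The markers of Egr3 run from -1.51 to 0.35, those of Nr4a3 all lie below 0, and those of Nr4a1 all lie above 0.

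Nfatc1 (ENSMUSG00000033016, chr18:80802944-80909810, - strand), whose short isoform is induced by NFAT itself, had the most counts of the 9 genes. It had 52287 counts over 166.2 kb in WT and 31111 over 180.8 kb in dKO, or 632.5 and 539.5 CPM. The log2 ratio was -0.23 (-0.25 to -0.21) by counts and -0.22 by density, and it was below 0 in the main setting and under all 14 alternatives. The promoter region, chr18:80862201-80944800, was a single island of like width in both lists, 82.0 kb with 28757 counts in WT and 82.6 kb with 16083 counts in dKO. The count ratio there was -0.32 on the log2 scale (-0.35 to -0.29) and the density ratio -0.20. A region inside the gene, chr18:80845401-80861600, went the other way by counts, with 990 counts over 6.8 kb in WT and 1706 over 15.8 kb in dKO, at 1.30 (1.19 to 1.42). Its density ratio was 0.22, so that most of this difference was width. Upstream, 3 regions had islands in dKO only, of 143 to 357 counts.

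Nfatc2 (ENSMUSG00000027544, chr2:168301910-168427157, - strand), the NFAT protein most abundant in resting T cells, was higher in dKO. It had 22933 counts over 110.2 kb in WT and 17393 over 115.4 kb in dKO, or 277.4 and 301.6 CPM. The log2 ratio was 0.12 (0.09 to 0.15) by counts and 0.18 by density, and it was above 0 under all 14 alternatives. The promoter region, chr2:168396801-168447200, held 11165 counts over 48.2 kb in WT and 9191 over 49.8 kb in dKO, at 0.24 (0.20 to 0.28) by counts and 0.32 by density. The islands that touch a start stood at 0.07 by counts and 0.46 by density. They leave out a dKO island of 1010 counts over 9.6 kb, whose stretch a WT island covers, so these ratios do not compare the same stretch. In the gene body, 3 weak regions differed widely by counts, at -1.29, -0.73 and 1.09, while their density ratios were -0.00, 0.33 and -0.01. The first lost width, from 7.6 to 3.4 kb, and the last gained it, from 4.0 to 9.4 kb. The region with -1.29 lies beside an island of 323 counts found in dKO only.

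Nfatc3 (ENSMUSG00000031902, chr8:108582740-108654437, + strand), the third NFAT protein of T cells, differed little. It had 21820 counts in 10 WT islands and 14116 in 11 dKO islands, over 79.0 kb in both lists, or 263.9 and 244.8 CPM. The log2 ratio was -0.11 (-0.14 to -0.08) by counts and 0.02 by density. The promoter region, chr8:108548001-108593800, stood at -0.11 and 0.05. Inside the gene, 3 short regions had islands in dKO only, of 96 to 178 counts. The starts of Ddx28 and Dus2l lie in the window, so its counts are shared with those genes.

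Across the 9 windows there were 48 merged regions, of which 36 had islands in both lists, 1 in WT only and 11 in dKO only. The dKO-only share was 22.9%, beside 28.1% of all 76633 regions, and the WT-only share was 2.08%, beside 12.8%. The one-list regions were small, of 96 to 357 counts over 0.8 to 3.8 kb. Of the 36 regions, 2 were higher and 7 were lower at a ratio of 1.5 by scaled counts, against a background of 11.1% higher and 14.6% lower among 45322 regions. The lower regions were those of Nr4a3 at -0.81, -0.74, -0.65 and -0.59, of Nfatc2 at -1.29 and -0.73 and of Nfatc3 at -0.74. Neighbouring regions of 1 gene thus make up much of that count. The median log2 ratio of the 36 regions was -0.13 by counts and 0.01 by density, with -0.07 and 0.11 over all regions. No region of the 36 passed the ratio of 1.5 by density, where they ranged from -0.44 to 0.46 and where the background was 2.63% higher and 2.51% lower. In 17 regions the widths in the lists differed by at most 10%. Their log2 count ratios ran from -0.59, at the Nr4a3 promoter, to 0.48, with a median of -0.13, beside -0.04 (SD 0.25) over 15756 such regions.

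**Figure D4:**
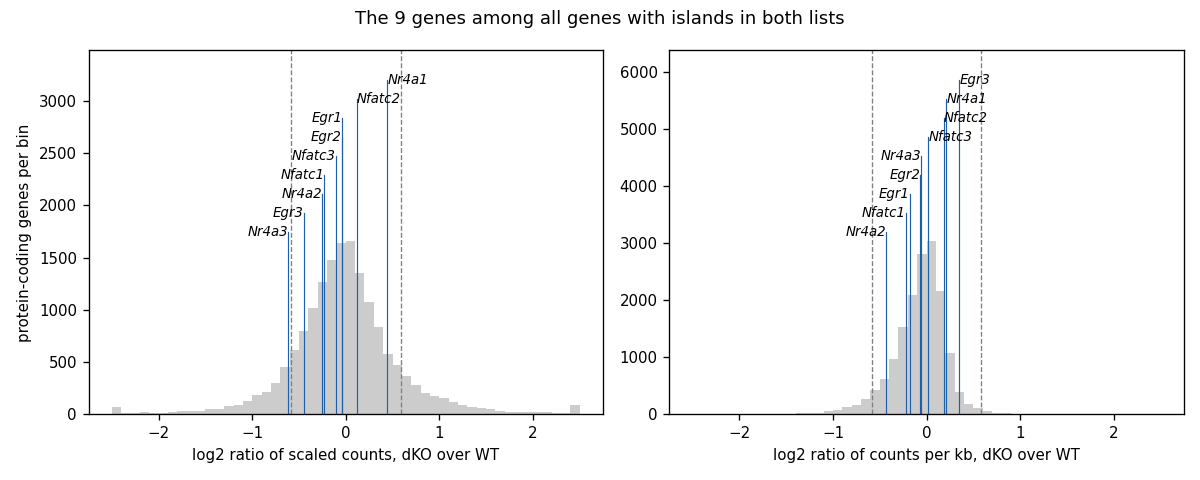
Histograms of the log2 ratio of dKO to WT over the 16385 genes present in both lists, by scaled counts (left) and by counts per kb (right), with the 9 genes marked; values beyond the axis are in the end bins and dashed lines mark a ratio of 1.5. Nr4a3 lies past the line by counts and none of the 9 does by counts per kb.

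The genes around these families were taken from lists of known pathway members, with 73 genes that had islands in both lists. By scaled counts 8 were higher and 8 lower at a ratio of 1.5, near the 11.5% of all genes in each direction, and the median log2 ratio was -0.03. By density 1 of the 73 was higher (Fasl) and 0 were lower, beside 0.977% higher and 5.33% lower over all genes. These shares over all genes also stand beside the calls within each list below. Pathway genes were measured by whole islands only, so whether a call holds over the same stretch in both lists was not tested. The spread of each list is shown in the plot of pathway lists.

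Of the remaining family members, Nfatc4 was at 0.59 by counts and -0.08 by density, Nfat5 was at -0.26, and Egr4 had no island in either list. The 15 genes from calcium entry to calcineurin, which switch NFAT on, included none past the ratio, with a median of 0.01 and a range from -0.49 to 0.55. Among 11 NFAT inhibitors and export kinases, Akap5, an anchor of calcineurin, was at 1.14 and Rcan1, a calcineurin inhibitor that NFAT induces, at 0.71. Rcan1 had 6085 counts over 39.4 kb in WT and 6927 over 71.4 kb in dKO. Csnk1a1, a kinase that phosphorylates NFAT, was at -0.59. By density these 3 genes lay at 0.06, -0.02 and -0.15. In the same list Rcan2 had no island in either list.

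Among 14 inducers and corepressors of the Egr genes, the MAP kinase genes Map2k2 (Mek2) and Mapk3 (Erk1) were higher, at 1.13 and 0.73, and 12 were past the ratio in neither direction. Map2k2 went from 9043 counts over 39.2 kb to 13831 over 90.6 kb, with 0.05 by density, and Mapk3 had 0.14. Both thus went with a greater covered width of whole islands in dKO. Whether this holds over the same stretch in both lists was not tested.

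Of 15 other immediate early genes, 1 was higher and 4 were lower by counts, with a median of -0.06. Ier5 was at 0.71. The lower genes were Atf3 at -0.72, Btg1, an antiproliferative gene of resting lymphocytes, at -0.70, Myc at -0.59 and Dusp6, an ERK phosphatase, at -0.59. By density their values were 0.30 for Atf3, -0.22 for Btg1, 0.05 for Myc and 0.15 for Dusp6, so that of these 4 only Btg1 was lower by both measures. Centred on the median gene, 2 of the 15 were lower at that ratio.

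Of 16 genes known to be induced by NFAT, EGR or NR4A factors, 2 were higher and 3 lower, with a median of -0.14 by counts and 0.02 by density. Fasl, the ligand of the death receptor Fas, had 6461 counts over 27 kb in WT and 9431 over 37.4 kb in dKO. Its log2 ratio was 1.07 (1.02 to 1.11) by counts and 0.72 by density. Itch, a ubiquitin ligase, was at 1.20 by counts and 0.11 by density. Cblb, a ubiquitin ligase that restrains T cell activation, had 41521 counts in WT and 17261 in dKO, at -0.75 (-0.77 to -0.72) by counts and -0.47 by density. Il2 was at -0.62 by counts and -0.02 by density, and Rnf128 (Grail) at -0.93 on few counts, 418 in WT and 153 in dKO. By density Fasl and Cblb lay further from 0 than the other 3 genes past the ratio by counts.

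**Figure D5:**
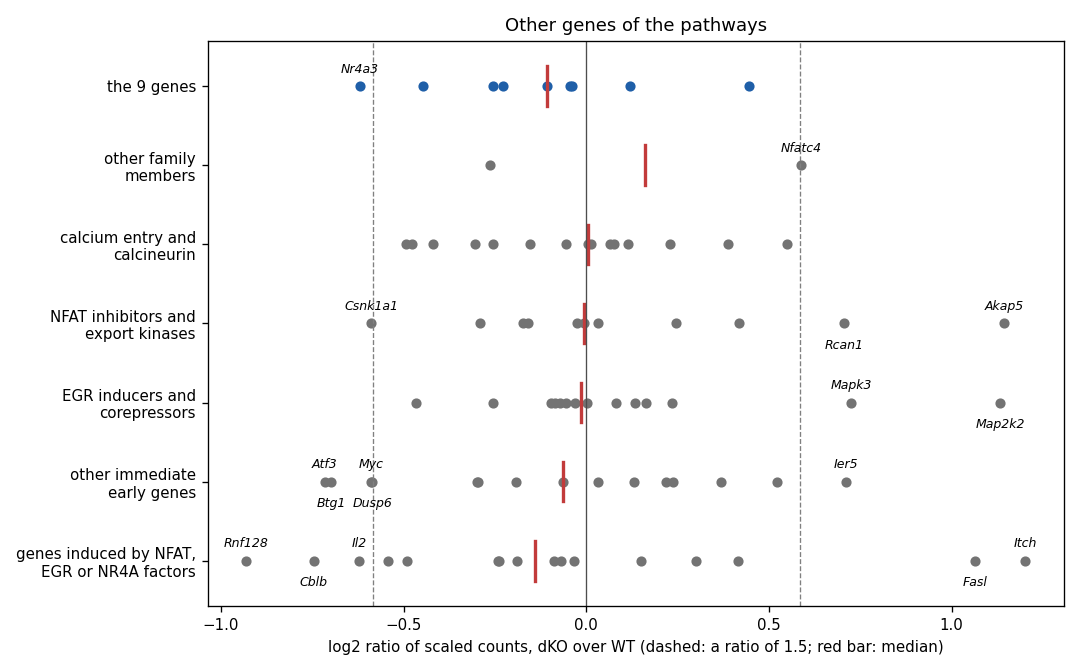
Log2 ratio of scaled counts, dKO over WT, of the 9 genes and of 6 lists of pathway genes; each point is a gene, red bars are medians and dashed lines mark a ratio of 1.5. Genes past that ratio are named, and the medians of the lists lie between -0.14 and 0.16.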

How the data were processed

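H3K27ac ChIP-seq reads of naive CD8+ T cells were aligned by the authors to mm9 with Bowtie2 2.2.5. Uniquely mapped reads (mapping quality above 10) were pooled per genotype, and SICER 1.1 called the islands at an FDR below 0.01, with windows of 200 bp and gaps of 400 bp. Whether duplicates were removed, and how the input was used, is not given in the sources used here. The deposited counts are whole reads per island, scaled for neither depth nor width. Islands exist only where called, and their count rises with width.

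Gene positions were from GENCODE vM1 (NCBIM37, the mm9 assembly). Whole-island counts were summed from the gene body to 50 kb upstream (overlap of at least 1 bp), divided by the list total and compared as log2 of dKO to WT. A gene past a ratio of 1.5 was called, with no test. Reads are not independent molecules. Members, gene lists and alternatives were chosen with earlier results of these data known. Pathway genes past the ratio of 1.5 are named. Steps were tested on simulated data (Python 3.11.15, NumPy 2.4.6).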

Additional observations from a re-analysis of the deposited data

How the results depend on the processing

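No paired analysis was possible because the values are 1 pooled list per genotype, with no value per replicate, and for the same reason no replicate could be left out. The median log2 ratio of the 9 genes was -0.11. It was -0.038 when scaled to counts in regions shared by both lists and -0.060 by counts per covered kb. Islands with at least 50% of their length in the window gave -0.040, islands within 1 kb of a start -0.16 and islands of at least 10 CPM -0.23. From islands away from starts of other genes the median was -0.16 without Nr4a1, whose only dKO island reaches the start of another gene. Chosen after seeing the data, merged regions by density gave -0.036, and proportional counts by density gave -0.024. Called lower was 1 gene. This became 0 under the shared-region scaling, counts per kb, the 50% rule, counts in proportion to the length inside the window, a ratio of 2 and both alternatives by density, and 2 under gene body only and under islands within 1 kb of a start. Called higher was 0 genes, and 1 under gene body only, under 20 kb upstream, under islands within 1 kb of a start and under islands away from other starts. Under islands away from other starts this gene was Egr1 at 1.59, from weak upstream islands alone. In the other settings it was Nr4a1 at 0.72, whose dKO island also covers starts of other genes. Among single genes, Nr4a1 was above 0 under all 13 of its alternatives (0.10 to 0.72), Nr4a2 (-0.46 to -0.18) and Nr4a3 (-0.81 to -0.06) were below 0 under all 14, and Nfatc3 turned above 0 under 2 of 14, Egr1 under 2, Egr2 under 5 and Egr3 under 5. By counts per covered kb the medians of the pathway lists were -0.033 (other family members), -0.057 (NFAT inhibitors and export kinases), 0.055 (other immediate early genes) and 0.015 (genes induced by these factors), and 0 genes were called in these lists and among the inducers of Egr genes, except 1 induced gene called higher. Centred on the median gene, 0 NFAT inhibitors and 2 immediate early genes were called lower. How far border placement accounts for these shifts was not tested.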
